A study of Mus musculus with 36 samples.

Results

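The nuclear genes for the mitochondrial respiratory chain and ATP synthase were followed in the lungs of 36 male mice. Members were taken by symbol: every probe set whose platform annotation gave a single symbol beginning with *Ndufa*, *Ndufb*, *Ndufc*, *Ndufs*, *Ndufv*, *Sdha* to *Sdhd*, *Uqcr*, *Cox4* to *Cox8* or *Atp5*. This gave 185 of the 45037 probe sets tested, for 94 genes. Complex I held 42 of these genes, complex II 8, complex III 8, complex IV 19 and complex V 17. The prefixes also brought in 12 assembly factor genes (16 probe sets, *Ndufaf* and *Sdhaf* genes), which help build complexes I and II and are not subunits, and 8 paralogs of subunits that are restricted to a tissue or inducible (10 probe sets). *Ndufa4* and *Ndufa4l2* were counted with complex IV, and *Cox7a2l*, which joins complexes III and IV into supercomplexes, was counted among its subunits. Each probe set is a group of short probes on the array for 1 transcript or transcript end, 53 of the genes had several, and these did not always move together.

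The mice were 7 to 13 weeks old and breathed filtered air or 0.3 ppm ozone without interruption for 6, 24 or 48 hr, and total RNA of the left lung was hybridized 1 mouse to an array. WT mice were B6129SF1/J hybrids, and the *Notch3*-/- and *Notch4*-/- mice were lines with the germline Notch3tm1Grid or Notch4tm1Grid allele, kept on a mixed background that is not this F1 cross. With 4 exposures for 3 genotypes, there were 12 groups of 3 mice, and each genotype had 1 air group that served all its ozone times. For *Notch3*, 1 of 2 probe sets gave -4.51 to -3.13 in all *Notch3*-/- mice, against -0.53 to 0.60 in WT. For *Notch4*, 1 of 3 gave -4.31 to -3.42 in 10 of the *Notch4*-/- mice but -1.97 and -1.40 in *Notch4*-/- air mice 1 and 2, against -0.38 to 0.58 in WT. Values are log2 units relative to the median of the same probe set over the 36 mice, so a difference of 1 is a doubling, and levels cannot be compared between genes.

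The respiratory chain passes electrons from NADH (through complex I) and succinate (through complex II) by way of complex III and cytochrome c to complex IV, which reduces oxygen, while complexes I, III and IV pump protons and complex V uses the gradient to make ATP. Most subunits are encoded in the nucleus, as all members here are, and are made outside the mitochondrion, while a small set is encoded in mitochondrial DNA and made on the mitochondrion's own ribosomes. Complex IV has alternative subunits for heart and skeletal muscle, for testis and for lung, and its supply of subunits differs between cell types that make up the lung. In RNA of whole lung, fewer cells of a type and less RNA per cell cannot be told apart.

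Respiratory chain genes are known for promoters without a TATA box that carry sites for the factors NRF1, the ETS protein NRF2 (GABP) and YY1. The RefSeq promoter table (GRCm38.p6, 250 bases before to 50 bases after each gene's start) held 78 of the 94 genes. On either strand, the NRF1 motif GCGCANGCGC was in 24.4% of these genes and in 7.17% of 17491 protein-coding genes, the ETS motif CCGGAAG in 28.2% and 12.9%, and the YY1 motif ATGGCG in 26.9% and 12.4%. At least 1 of these motifs, whose matches may overlap, was in 51 of 78 members (65.4%) and 27.2% of the protein-coding genes. The 250 bases upstream of 4 members described below, 2 with a match and 2 with none, are given 5′ to 3′ on the gene's strand, with motif matches in capitals.
Ndufaf4 (chr4:24897833-24898082, plus strand): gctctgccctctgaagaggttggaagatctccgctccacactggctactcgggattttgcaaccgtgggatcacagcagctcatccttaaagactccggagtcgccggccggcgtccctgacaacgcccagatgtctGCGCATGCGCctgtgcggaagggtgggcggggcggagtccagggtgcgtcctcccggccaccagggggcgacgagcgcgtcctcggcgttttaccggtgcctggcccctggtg
Sdhd (chr9:50603850-50604099, minus strand): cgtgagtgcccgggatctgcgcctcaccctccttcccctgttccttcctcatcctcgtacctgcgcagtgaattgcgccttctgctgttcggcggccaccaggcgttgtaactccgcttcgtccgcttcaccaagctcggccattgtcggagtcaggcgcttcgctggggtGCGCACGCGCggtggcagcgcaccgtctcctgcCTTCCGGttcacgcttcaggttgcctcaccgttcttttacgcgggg
Cox7a2l (chr17:83514334-83514583, minus strand): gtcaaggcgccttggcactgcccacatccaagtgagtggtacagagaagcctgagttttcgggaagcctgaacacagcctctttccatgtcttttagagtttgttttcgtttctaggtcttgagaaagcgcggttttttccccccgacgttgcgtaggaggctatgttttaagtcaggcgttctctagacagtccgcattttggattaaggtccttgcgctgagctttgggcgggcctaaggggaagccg
Cox8b (chr7:140900447-140900696, minus strand): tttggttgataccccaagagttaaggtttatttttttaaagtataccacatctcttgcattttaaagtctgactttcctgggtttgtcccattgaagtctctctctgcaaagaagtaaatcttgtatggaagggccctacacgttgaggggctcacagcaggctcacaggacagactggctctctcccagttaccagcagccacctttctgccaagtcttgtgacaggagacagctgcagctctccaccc
*Ndufaf4* had an NRF1 match 113 to 104 bases before the start. *Sdhd* had an NRF1 match 79 to 70 bases and an ETS match 46 to 40 bases before it. None of the 3 motifs was found upstream of *Cox7a2l*, a ubiquitous member, or of *Cox8b*, a heart and skeletal muscle subunit, which says only that these letters are not in the window. After 24 hr ozone, the median difference from air was -0.08 over the 34 probe sets of the 19 genes with the NRF1 motif and -0.09 over the 122 probe sets of the 59 genes without it. After 48 hr, these medians were 0.02 and 0.07.

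The members rose and fell together from mouse to mouse, also within groups. The mean Pearson correlation between pairs of the 185 probe sets over the 36 mice was 0.43, against 0.0093 over all probe sets tested, 0.44 for deviations from the group means, and 0.37 without *Notch4*-/- ozone 48 hr mouse 2, described below. The points share their arrays and normalization, so these correlations are descriptions. The mean was 0.52 among complex I subunits, 0.49 among those of complex III, 0.42 in complex V, 0.41 in complex IV and 0.15 in complex II. It was 0.34 among 156 probe sets of mitochondrial ribosomal proteins and 0.16 among 36 of the tricarboxylic acid cycle. The least like the rest were *Atp5g1* on 1 probe set, with a correlation of -0.37 to the median of all members, and 1 probe set of *Sdha*, the flavoprotein of complex II, with -0.35. In all, 114 members had a correlation of 0.7 or more to that median, 30 one under 0.3 and 13 one below 0.

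In WT air mice 1, 2 and 3, the median over the 185 members was -0.12, 0.14 and 0.05. In WT mice it was 0.00, -0.18 and -0.08 after 6 hr ozone, -0.20, -0.09 and -0.11 after 24 hr, and -0.07, 0.05 and 0.21 after 48 hr. The 24 hr WT mice thus overlapped the air mice, because the lowest air mouse lay within their range. In *Notch3*-/- mice the medians were -0.07, 0.06 and -0.05 in air, 0.06, 0.18 and -0.06 after 6 hr, -0.06, -0.01 and 0.18 after 24 hr, and 0.03 in all 3 mice after 48 hr. In *Notch4*-/- mice they were 0.05, 0.01 and 0.21 in air, -0.01, -0.05 and 0.00 after 6 hr, 0.01, -0.08 and -0.13 after 24 hr, and 0.11, 0.45 and 0.00 after 48 hr. The SD within groups was 0.114. *Notch4*-/- ozone 48 hr mouse 2 stood apart at 0.45, with 169 of 185 members above 0, while the other 35 mice lay between -0.20 and 0.21. That mouse was also the highest in brown fat markers: *Ucp1*, the uncoupling protein of brown fat, was at 6.01, *Cidea* at 3.50 and the median of 14 brown fat probe sets at 1.45, against at most 0.63 in any other mouse. The part of brown fat in its high values was not tested.

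**Figure D1:**
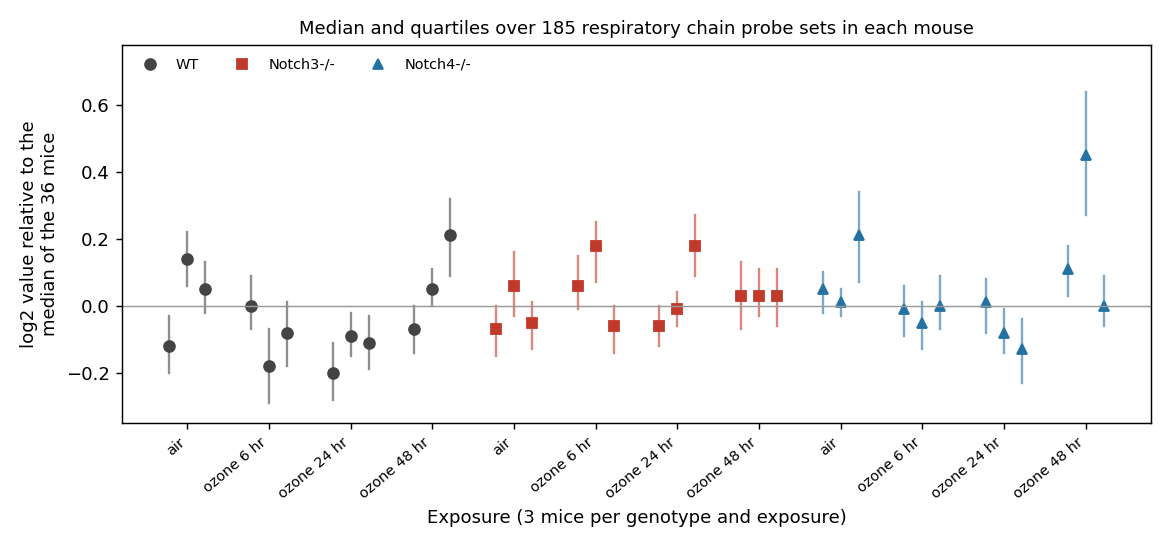
Median (symbol) and lower to upper quartile (line) over the 185 member probe sets in each of the 36 mice, in log2 units relative to the median of the 36 mice, by genotype and exposure. All mice lie between -0.20 and 0.21 except *Notch4*-/- ozone 48 hr mouse 2, at 0.45.

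Ozone against air was tested with limma, averaged over the genotypes (9 ozone and 9 air mice) and within each genotype (3 and 3), with adjusted p under 0.05 as the call. After 6 hr, 0 members passed as higher and 1 as lower, against 0.822% and 2.08% of all probe sets. After 24 hr, 2 were higher (1.08% of members, 3.19% of all probe sets) and 5 lower (2.70% of members, 2.1% of all). After 48 hr, 6 were higher (3.24% against 6.72%) and 3 lower (1.62% against 3.96%). At an unadjusted p under 0.05, 32 members were lower and 4 higher at 24 hr, and 33 higher and 4 lower at 48 hr, which together are 19.5% and 20.0% of members, against 21.2% and 22.3% of all probe sets. The members' share lay next to that of the whole array for falls at 24 hr and under it in the other directions, and these differences in share were not tested. With arrays weighted by their quality, 30 members were lower at 24 hr (16.2%, against 7.5% of all probe sets) and 2 higher (1.08%, against 8.25%). The largest weight, 4.1, went to *Notch4*-/- air mouse 1, and *Notch4*-/- air mouse 3 had 0.416. The *Notch4* signal of air mouse 1 lay between those of WT and of most *Notch4*-/- mice. The part of these weights in the counts was not tested.

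The small shifts of single members mostly had the same sign. The median difference over the 185 members was -0.05 after 6 hr (139 below 0), -0.09 after 24 hr (158 below 0) and 0.06 after 48 hr (125 above 0), while over all probe sets it was -0.01, -0.02 and -0.01. The median SE of a single member in these comparisons was 0.074. At 24 hr the median was -0.10 for complexes I, III and V, -0.08 for complex IV and -0.06 for complex II subunits. At 48 hr it was 0.08 for complex V, 0.07 for complexes I and III, 0.03 for complex IV and -0.01 for complex II, and 0.15 for the 16 assembly factor probe sets, 13 of them above 0. A list of 11 well-known subunits, chosen with at least 1 from each complex (*Ndufs1*, *Ndufv1*, *Sdha*, *Sdhb*, *Uqcrc1*, *Uqcrfs1*, *Cox5a*, *Cox5b*, *Atp5a1*, *Atp5b* and *Atp5c1*), had 26 probe sets, with differences of -0.19 to 0.41 at 6 hr, -0.49 to 0.06 at 24 hr and -0.14 to 0.19 at 48 hr. By limma 0 of them passed at 6 and 24 hr and 1, for *Cox5a*, at 48 hr.

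Within genotypes the medians differed in sign. At 6 hr the median member was -0.10 in WT, 0.11 in *Notch3*-/- and -0.12 in *Notch4*-/- mice, and at 24 hr it was -0.17, 0.06 and -0.16, with 173, 62 and 160 of 185 members below 0. At 48 hr it was 0.03, 0.05 and 0.10. Single mice set some of these signs. Without *Notch4*-/- ozone 48 hr mouse 2 the *Notch4*-/- median at 48 hr was -0.04. Without *Notch3*-/- ozone 24 hr mouse 3 the *Notch3*-/- median at 24 hr was -0.01. Without WT air mouse 1 or WT ozone 48 hr mouse 3 the WT median at 48 hr was -0.04. Leaving out *Notch4*-/- air mice 1 and 2 together, a pair chosen after seeing the data, gave a *Notch4*-/- median at 48 hr of -0.03. In WT mice 0 members passed at 6 hr (0% of all probe sets did) and at 24 hr (0.104% of all), and 1 passed at 48 hr (1.89% of all). In *Notch3*-/- mice 0 passed at 6 hr (0.16% of all), 2 at 24 hr (2.72%) and 0 at 48 hr (2.46%). In *Notch4*-/- mice 0 passed at each time, against 0.00666%, 1.39% and 1.75% of all probe sets. At an unadjusted p under 0.05, 33 members were lower and 2 higher in *Notch4*-/- mice at 24 hr, and 13 lower and 2 higher in WT, together 18.9% and 8.11% of members against 17.4% and 9.71% of all probe sets. At this level 14 members were lower and 0 higher in WT at 6 hr (7.57%, against 8.16% of all probe sets). In *Notch3*-/- mice 2 and 2 were so at 6 hr (2.16% against 12.1%), and 3 lower and 6 higher at 48 hr (4.86% against 12.8%). In *Notch4*-/- mice 9 were lower and 0 higher at 6 hr (4.86% against 10.5%), and 0 lower and 13 higher at 48 hr (7.03% against 12.7%). At 48 hr in WT mice 4 were higher and 1 lower (2.7% against 10.5%). In *Notch3*-/- mice at 24 hr 8 were higher and 4 lower (6.49% against 19.1%). Each of these shares lay under that of all probe sets, except that of *Notch4*-/- mice at 24 hr, which lay above it.

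The ozone response of *Notch3*-/- mice minus that of WT had a median over the members of 0.19 at 6 hr (156 of 185 above 0), 0.22 at 24 hr (162 above 0) and 0.02 at 48 hr, with a median SE of 0.180 for a single member. In limma's test of these differences 0 members passed, while 0.00888%, 0.00444% and 0.00222% of all probe sets did, and at an unadjusted p under 0.05, 14, 23 and 1 members were above 0 and 1, 0 and 1 below, together 8.11%, 12.4% and 1.08% of members against 4.86%, 10.2% and 2.89% of all probe sets. For *Notch4*-/- minus WT, the medians were 0.01, 0.00 and 0.07, with 0 members passing, against 0%, 0% and 0.00222% of all probe sets. At an unadjusted p under 0.05 by limma, 1, 3 and 1 members were above 0 and 0 below. These are 0.541%, 1.62% and 0.541% of members, against 3.09%, 5.25% and 3.29% of all probe sets. Both sets of differences share the WT mice, and the medians of the 3 WT air mice alone ran from -0.12 to 0.14.

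*Cox7a2l*, which encodes a factor that joins complexes III and IV into supercomplexes, fell after 24 hr ozone on all 3 of its probe sets. The first lay between -0.10 and 0.20 with a median of 0.06 in the 9 air mice, between 0.05 and 0.35 (median 0.12) after 6 hr, between -0.53 and 0.03 (median -0.24) after 24 hr, and between -0.44 and 0.04 (median -0.09) after 48 hr. The 24 hr mice were the lowest and overlapped the air mice slightly, and the 6 hr mice lay at or above the air median in all but 1. The difference from air at 24 hr was -0.29 (SE 0.07, adjusted p = 0.0094 by limma) and for the other probe sets it was -0.26 (adjusted p = 0.019) and -0.26 (adjusted p = 0.03). In WT, *Notch3*-/- and *Notch4*-/- mice it was -0.24, -0.25 and -0.36 for the first probe set, none of which passed on its own. At 48 hr 2 of the 3 probe sets passed, at -0.21 (adjusted p = 0.039) and -0.22 (adjusted p = 0.043), calls that were lost without any 1 of 10 and 11 of the 18 mice and without *Notch4*-/- air mice 1 and 2 together (adjusted p = 0.057 and 0.054). The first probe set stayed past the threshold at 24 hr when any of the 18 mice was left out, with a largest adjusted p of 0.029. The second was not past it without *Notch3*-/- ozone 24 hr mouse 1 or *Notch4*-/- ozone 24 hr mouse 2, with values from -0.30 to -0.22. The third was lost without any 1 of 10 mice. The 3 probe sets have names with the letters a or x, which mark probes shared by transcripts or possibly by other genes.

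*Ndufb1*, an accessory subunit of complex I with 1 probe set, rose after 48 hr ozone by 0.39 (SE 0.08, adjusted p = 0.0023). Its values lay between -0.50 and 0.27 (median -0.08) in air, -0.16 and 0.20 (median 0.00) after 6 hr, -0.17 and 0.40 (median -0.05) after 24 hr, and 0.01 and 0.81 (median 0.25) after 48 hr. The highest was *Notch4*-/- ozone 48 hr mouse 2, the mouse with brown fat transcripts, and the difference passed the threshold without it and without any other single mouse (0.32 to 0.42, largest adjusted p 0.0077). The differences in WT, *Notch3*-/- and *Notch4*-/- mice were 0.35, 0.44 and 0.37 and did not pass on their own.

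*Ndufaf4*, an assembly factor of complex I, was higher on 1 of its 2 probe sets after 24 hr (0.34, SE 0.09, adjusted p = 0.029) and 48 hr (0.34, SE 0.09, adjusted p = 0.016). Its other probe set differed by 0.11 and 0.16 and did not pass. The 9 air mice lay between -0.40 and 0.33 (median -0.15), the 24 hr mice between 0.00 and 0.60 (median 0.17) and the 48 hr mice between -0.29 and 0.67 (median 0.30), so that the groups overlapped widely. In WT mice the 3 values were 0.00, -0.36 and -0.40 in air and 0.49, 0.10 and 0.67 after 48 hr, a difference of 0.68 (SE 0.16, adjusted p = 0.023). In *Notch3*-/- mice they were -0.35, -0.15 and -0.24 in air and 0.44, 0.57 and 0.60 after 24 hr, a difference of 0.79 (SE 0.16, adjusted p = 0.0086). In both cases the groups did not overlap. The *Notch4*-/- mice differed by -0.05 at 24 hr and 0.21 at 48 hr, from air values of 0.21, 0.08 and 0.33 that lay above those of the other air mice. The averaged 24 hr call was lost without any 1 of 6 mice. Without *Notch4*-/- air mice 1 and 2, the mice with intermediate *Notch4* signal, the adjusted p was 0.088 at 24 hr and 0.1 at 48 hr. The *Notch3*-/- call was lost without air mouse 1 (adjusted p = 0.054), and the WT call without any 1 of 4 mice.

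**Figure D2:**
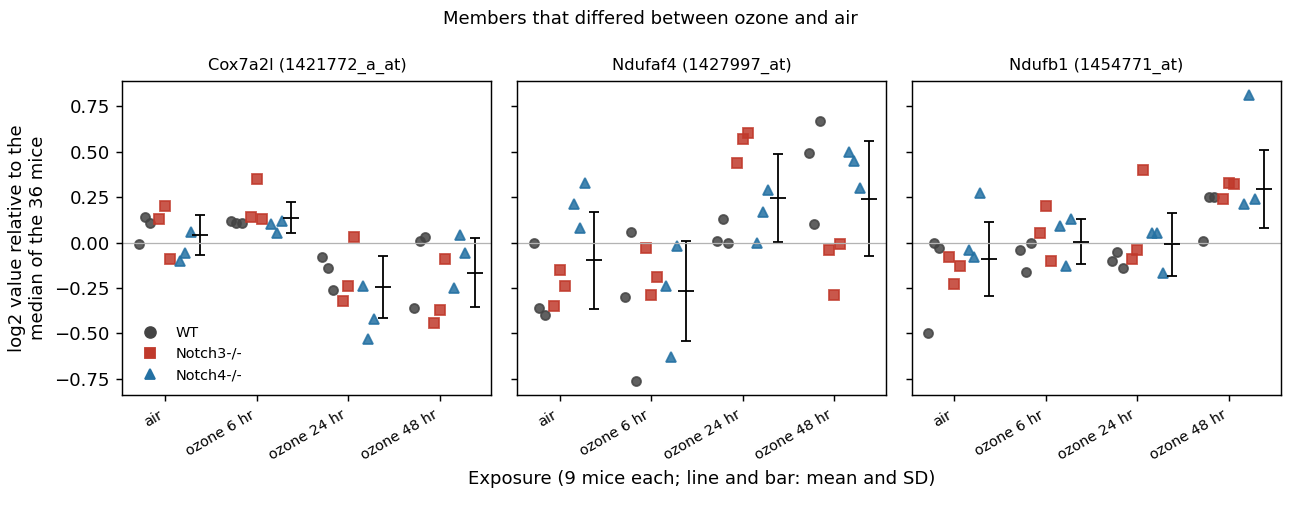
Values of *Cox7a2l*, *Ndufaf4* and *Ndufb1* in each of the 36 mice by exposure, in log2 units relative to the median of the 36 mice, with the mean and SD of the 9 mice beside each exposure. *Cox7a2l* is lowest at 24 hr (median -0.24), *Ndufaf4* is higher at 24 and 48 hr with wide overlap, and all 9 of the 48 hr mice are above 0 for *Ndufb1*.

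The other ozone calls rested on 1 probe set of a gene or were lost without any of several mice. *Ndufab1*, the mitochondrial acyl carrier protein that is also part of complex I, has 5 probe sets, of which 1 rose by 0.49 at 24 hr (adjusted p = 0.025) and by 0.92 within *Notch3*-/- mice (SE 0.22, adjusted p = 0.024), while another differed by -0.33 at 24 hr. At 48 hr, 2 further probe sets rose by 0.28 (adjusted p = 0.03) and 0.25 (adjusted p = 0.027). The averaged 24 hr call was lost without WT air mouse 2, WT ozone 24 hr mouse 2 or *Notch3*-/- ozone 24 hr mouse 3, with values from 0.42 to 0.56, and the other *Ndufab1* calls without any 1 of 4 to 7 mice.
*Ndufc2*, a membrane subunit of complex I, fell by 0.17 at 24 hr on 1 of 4 probe sets (adjusted p = 0.02), a call lost without *Notch3*-/- air mouse 2, *Notch3*-/- ozone 24 hr mouse 1 or *Notch4*-/- air mouse 3. *Sdhd*, the membrane anchor of complex II, fell by 0.30 on 1 of 2 probe sets (adjusted p = 0.029), and the other differed by -0.17. At 48 hr *Ndufa12* rose by 0.19 on 1 of 4 probe sets (adjusted p = 0.029), *Cox5a* by 0.19 on 1 of 3 (adjusted p = 0.047) and *Ndufs4* fell by 0.26 on 1 of 4 (adjusted p = 0.039), with its other 3 between 0.07 and 0.22. *Uqcrq*, a small subunit of complex III, fell by 0.23 at 6 hr on 1 of 4 probe sets (adjusted p = 0.039). These calls were lost without any 1 of 5 (*Ndufa12*), 8 (*Sdhd*), 12 (*Ndufs4* and *Uqcrq*) and 14 (*Cox5a*) of the 18 mice.

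Lists of other mitochondrial genes were read beside the members. Of all probe sets tested, 3.19% were higher and 2.1% lower at 24 hr, and 6.72% were higher and 3.96% lower at 48 hr. The counts below are to be read against these shares. Of 156 probe sets for 76 mitochondrial ribosomal proteins, 33 (21.2%) were higher and 2 (1.28%) lower after 48 hr, with a median difference of 0.14, against 6 and 3 of the 185 members. The 33 became 25 without *Notch4*-/- ozone 48 hr mouse 2 and *Notch3*-/- air mouse 3, while all probe sets higher went from 3026 to 2925. They became 23 to 43 without 1 mouse at a time. The fewest came without *Notch4*-/- ozone 48 hr mouse 2 (2850 of all probe sets higher), the most without *Notch4*-/- ozone 48 hr mouse 3 (3140 higher). Fewer than 33 also passed without *Notch4*-/- air mice 1 and 2, which leaves a single mouse in that group. Among electron carriers and antioxidant proteins outside the symbol prefixes, 17 of 42 probe sets rose and 1 fell at 48 hr. They included *Cyc1*, the cytochrome c1 subunit of complex III (0.24, adjusted p = 0.043), *Cycs*, cytochrome c, on 3 probe sets (0.23 to 0.34), and *Slc25a5*, an ADP/ATP carrier, on 7 (0.26 to 0.35), while *Slc25a4*, the carrier of muscle and heart, fell by 0.28 (adjusted p = 0.037). In the tricarboxylic acid cycle list 3 of 36 probe sets rose at 48 hr, among them *Cs*, citrate synthase (0.47, SE 0.07, adjusted p = 1.3e-05). Of 40 probe sets for regulators of mitochondrial biogenesis, 2 rose at 24 hr, for *Pprc1*, a coactivator of NRF1 (0.66, adjusted p = 0.00085), and *Gabpb1*, a subunit of GABP (0.40, adjusted p = 0.015). At 48 hr 4 rose, with *Gabpb1* at 0.59, and 1 fell. Among 44 probe sets for other assembly factors, 6 rose at 48 hr and 0 fell, with *Bcs1l*, needed for complex III, at 0.33 (adjusted p = 0.00023). In a list of hypoxia-inducible genes, 8 of 24 probe sets rose at 24 hr and 8 at 48 hr, 6 of them at both times, with *Ldha*, which makes lactate from pyruvate, at 0.32 and 0.37, and 2 and 1 fell. The lists were not tested against each other or against the members. Macrophage markers also moved at 48 hr, with 5 of 13 probe sets higher and a median difference of 0.33. Other marker calls at 48 hr included *Tppp3* (-0.6) and *Tubb4b* (0.22) of ciliated cells and *Abcc9* (-0.39 and -0.46) of pericytes. They also included *Cyp2f2* (-0.2) and *Cbr2* (-0.14) of club cells, *Dio2* (0.73) of brown fat and *Ddx4* (-0.34) of germ cells. At 24 hr, calls included *Marco* (0.73 and 0.69) and *Ccr2* (-0.32) of macrophages, *Tppp3* (-0.61), *Scgb3a2* (-0.22) and *Dio2* (0.6). The part of these cell types in the ozone results was not tested.

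**Figure D3:**
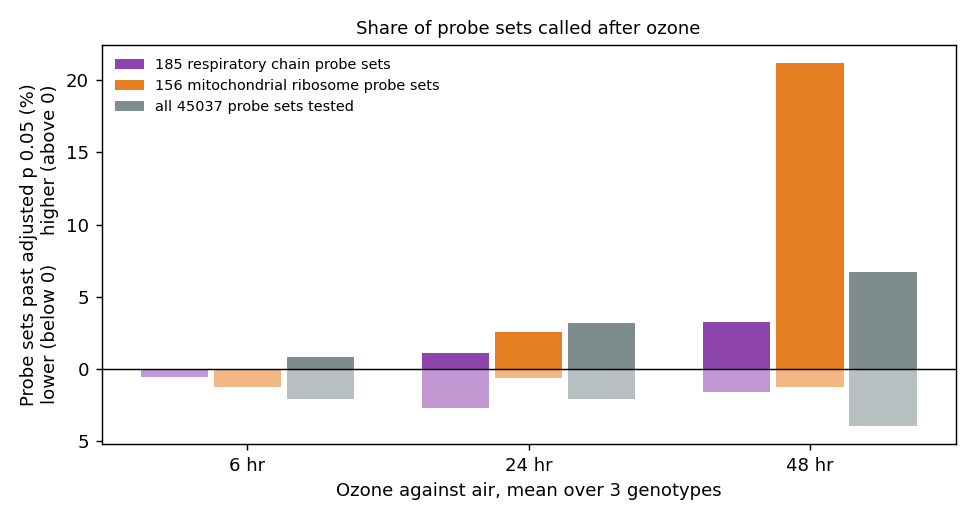
Percent of probe sets past adjusted p 0.05 in ozone against air averaged over the genotypes, higher above 0 and lower below 0, for the 185 members, 156 probe sets of mitochondrial ribosomal proteins and all 45037 probe sets. At 48 hr, 3.24% of members, 21.2% of the ribosomal probe sets and 6.72% of all probe sets were higher.

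Between genotypes in air, 0 members passed for *Notch3*-/- against WT (0.486% of all probe sets passed) and 0 for *Notch4*-/- against WT (0.482%), with medians of -0.05 and 0.07. At an unadjusted p under 0.05 by limma, 1 and 4 members were higher and 3 and 2 lower. Together these are 2.16% and 3.24% of members, against 7.22% and 7.4% of all probe sets. As the mean over the 4 exposures, with 12 mice a genotype, 5 members were higher and 0 lower in *Notch3*-/- mice, against 3.28% and 2.4% of all probe sets, and 3 were higher and 1 lower in *Notch4*-/- mice, against 2.87% and 2.89%. The median difference was 0.06 (157 of 185 above 0) and 0.08 (153 above 0), with medians of 0.00 over all probe sets. WT mice were F1 hybrids and the knockout lines were not, so strain and deletion cannot be told apart, and the 2 knockout comparisons share the WT mice. Neutrophil markers differed in the same comparisons, with 5 of 7 probe sets higher in each line and median differences of 1.01 and 0.69. Of 20 smooth muscle and pericyte probe sets, 1 and 2 were lower, all for *Rgs5*, a pericyte gene (-1.28 and -1.20 on the probe set called in both lines). Of 13 macrophage probe sets, 3 and 1 were higher, with *C1qa* at 0.69 and 0.48, and 1 and 0 lower, and of 16 ciliated cell probe sets 1 and 2 were higher, with *Ccdc39* at 0.46 and 0.55. Of the brown fat and erythroid markers, *Dio2* (0.63) and *Slc4a1* (0.85) were called in *Notch4*-/- mice, both higher. The part of these cell types in the results for the members was not tested. Apart from *Sdha*, each member call over the exposures held without any single mouse. The marker calls were not recomputed in this way.

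*Ndufs5*, a complex I subunit with 1 probe set, lay between -0.66 and 0.06 (median -0.38) in the 12 WT mice, between -0.04 and 0.34 (median 0.05) in *Notch3*-/- mice and between -0.45 and 0.51 (median 0.00) in *Notch4*-/- mice. The WT and *Notch3*-/- ranges overlapped from -0.04 to 0.06, and the *Notch3*-/- median lay within the WT range. The difference from WT was 0.41 (SE 0.08, adjusted p = 0.00063) and 0.31 (SE 0.08, adjusted p = 0.012). *Ndufa12*, another complex I subunit, was higher in both lines on a different probe set from that of its ozone call, by 0.31 (adjusted p = 0.00018) and 0.28 (adjusted p = 0.00059), with WT between -0.51 and 0.04 and the lines between -0.20 and 0.32. Its other 3 probe sets differed by -0.12 to 0.10 and did not pass. *Ndufaf7*, a methyltransferase that modifies a core subunit of complex I, lay between -0.44 and 0.05 (median -0.24) in WT, -0.26 and 0.22 (median 0.01) in *Notch3*-/- and -0.01 and 0.48 (median 0.08) in *Notch4*-/- mice, differences of 0.23 (adjusted p = 0.015) and 0.37 (adjusted p = 0.0001).
*Cox6b2*, the testis form of a complex IV subunit, was called in *Notch3*-/- mice. All 12 *Notch3*-/- mice lay between 0.08 and 0.58 (median 0.39), the WT mice between -0.74 and 0.21 (median -0.23) and the *Notch4*-/- mice between -0.91 and 0.24 (median -0.20). Its difference from WT was 0.56 (SE 0.11, adjusted p = 0.0016) and -0.06 in *Notch4*-/- mice. The median of the testis and germ cell markers lay between -0.11 and 0.10 in the 36 mice. *Cox6b1*, the ubiquitous form, differed by 0.04 and 0.09 on its 2 probe sets in *Notch3*-/- mice. *Cox6a1*, the ubiquitous form of another complex IV subunit, was lower in *Notch4*-/- mice by 0.17 on 1 of its 2 probe sets, a difference of -0.17 (SE 0.04, adjusted p = 0.0032), where all 12 WT mice lay between 0.01 and 0.14 and all 12 *Notch4*-/- mice between -0.21 and -0.01. Its second probe set differed by 0.04. *Sdha* was higher in *Notch3*-/- mice by 0.16 on 1 of 4 probe sets (adjusted p = 0.038), a call lost without any 1 of 13 of 24 mice.

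**Figure D4:**
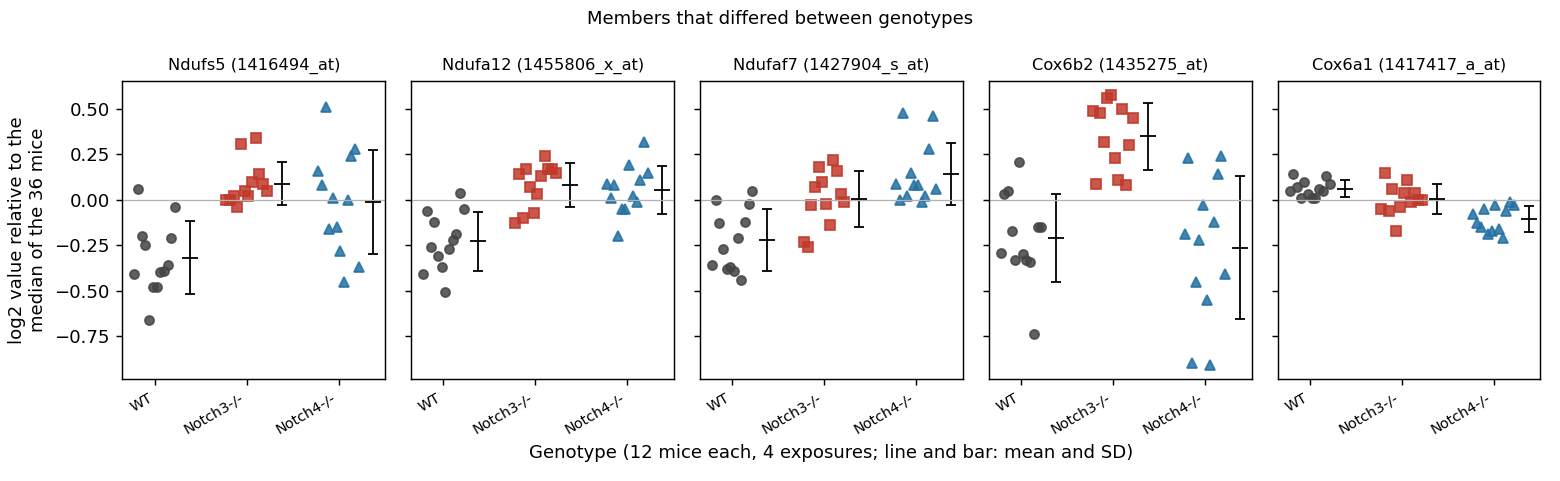
Values of *Ndufs5*, *Ndufa12*, *Ndufaf7*, *Cox6b2* and *Cox6a1* in each of the 36 mice by genotype (12 mice each, over 4 exposures), in log2 units relative to the median of the 36 mice, with mean and SD. All 12 *Notch3*-/- mice are above 0 for *Cox6b2*, and all 12 *Notch4*-/- mice are below all 12 WT mice for *Cox6a1*.

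*Notch3* and *Notch4* lie on chromosome 17 (GRCm38.p6), as do 6 member genes with 14 probe sets. *Ndufv3* lies 0.601 Mb from *Notch3*, and *Ndufa7* 0.74 Mb from *Notch4*. None of their 6 probe sets passed against WT in either line, with differences of 0.00 to 0.08 in *Notch3*-/- and 0.04 to 0.16 in *Notch4*-/- mice. *Ndufaf7*, the only one of the 6 genes with a call between genotypes, lies 46.8 and 44.4 Mb from *Notch3* and *Notch4*. *Cox7a2l* lies 51.4 and 48.9 Mb from them, and its differences from WT of -0.10 to 0.01 did not pass.

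Striated muscle forms of complex IV subunits varied widely between mice. *Cox7a1* had an SD of 0.98 over the 36 mice and ran from -2.29 to 2.01, a 19.7-fold range. *Cox8b* ran from -1.14 to 2.62 (SD 0.83, 13.5-fold), and the 2 probe sets of *Cox6a2* had SDs of 0.65 and 0.49. The ubiquitous counterparts had SDs of 0.12 and 0.17 (*Cox7a2*), 0.12 to 0.13 (*Cox8a*) and 0.10 and 0.13 (*Cox6a1*), against a median of 0.172 over all members and 0.191 over all probe sets. The muscle forms also spread within groups, and *Cox8b* was -0.11, 1.05 and 0.01 in the WT air mice and -0.38, 1.22 and -0.10 in the *Notch3*-/- air mice. Averaged over genotypes, *Cox7a1* differed by -0.97 at 24 hr (adjusted p = 0.19) and *Cox8b* by -0.70 (adjusted p = 0.29), and neither passed in any comparison. The median difference of the 16 cardiac marker probe sets was -0.78 at 24 hr and -0.54 at 48 hr, and 0 of them passed by limma.

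These paralogs rose and fell with markers of cardiac muscle, which in the mouse lung is found in the walls of the pulmonary veins. Over the 36 mice, *Cox7a1* correlated with the median of 16 cardiac marker probe sets at r = 0.93 (Spearman's rho 0.95), *Cox8b* at 0.86 (0.95) and the *Cox6a2* probe sets at 0.88 (0.91) and 0.80 (0.82), each with an adjusted p of 1.5e-05 for r and 1.7e-05 for rho over 12 relations, from 1e-05, the smallest value that 100000 permutations can give. Without the 2 mice farthest from the median of the markers, r was 0.92, 0.85, 0.94 and 0.87, and for deviations from the group means it was 0.92, 0.86, 0.90 and 0.86. With skeletal muscle markers, r lay between 0.06 and 0.08 (adjusted p = 0.72), while rho lay between 0.33 (*Cox7a1*, adjusted p = 0.049) and 0.48 (*Cox6a2*, adjusted p = 0.0041 and 0.0044), with 0.36 for *Cox8b* (adjusted p = 0.031), by permutation. The mouse highest in skeletal muscle, *Notch3*-/- air mouse 3, with a marker median of 2.88 and *Acta1*, skeletal actin, at 5.06, had *Cox8b* at -0.10 and *Cox7a1* at -0.20. With brown fat markers r lay between 0.65 and 0.80 (adjusted p = 1.5e-05), and between 0.59 and 0.72 without the 2 mice farthest out, of which 1 was *Notch4*-/- ozone 48 hr mouse 2. In that mouse *Cox8b* was at 2.62 and *Cox7a1* at 2.01, the highest of the 36, while its cardiac marker median of 0.50 was not.

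**Figure D5:**
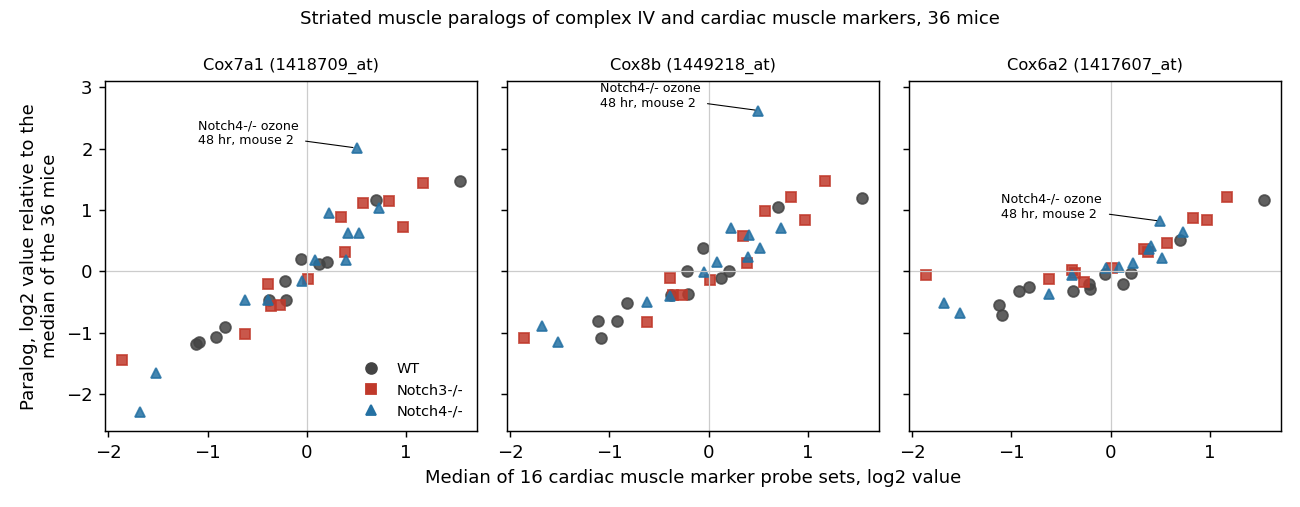
*Cox7a1*, *Cox8b* and *Cox6a2* in each of the 36 mice (vertical axis) against the median of 16 cardiac muscle marker probe sets in the same mouse (horizontal axis), both in log2 units relative to the median of the 36 mice. The values rise together in all 3 genotypes (r = 0.93, 0.86 and 0.88), and *Notch4*-/- ozone 48 hr mouse 2 lies above the others for *Cox8b* and *Cox7a1*.

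The remaining paralogs of the list varied little. *Cox4i2*, a lung form of complex IV subunit 4, had an SD of 0.16 and differences of -0.10, -0.05 and -0.14 after 6, 24 and 48 hr, and its ubiquitous counterpart *Cox4i1* -0.05, -0.14 and -0.02. *Ndufa4l2*, a paralog induced by hypoxia in other settings, differed by -0.10, -0.04 and -0.12, and *Ndufa4* by -0.02, -0.12 and 0.06. *Cox7b2* and the 2 probe sets of *Cox8c*, forms of testis, had SDs of 0.15 to 0.24. None of these passed in any comparison. Whether their transcripts were above background cannot be read from centred values.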

How the data were processed

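Total RNA of 36 left lungs was hybridized to Affymetrix mouse genome arrays. The authors summarised and normalized the arrays with RMA and deposited log2 values for 45101 probe sets, each found here to be centred on its median over the 36 arrays, so that brightness and detection are not readable. The 64 control probe sets were left out and the other 45037 were fitted by limma (version 3.58.1, R version 4.3.3) with 1 mean for each of 12 groups, moderated by eBayes. Two-sided p-values of each of 22 comparisons received Benjamini-Hochberg adjustment across all probe sets. Members came from the platform annotation, in which 932 probe sets have several symbols (10 list a member and were not used) and 9160 none, and all 94 genes matched RefSeq by gene ID. The genes named are every member called, the paralog pairs measured and a list of 11 subunits. The members and lists were chosen with earlier results of these data known. Alternatives were another quantile normalization, median centring, array weights, the genotypes compared alone, probe sets without suffix letters, a replicate block, the methods' ANOVA with Tukey's test and each array left out. Leaving out 2 pairs of mice was chosen after seeing the data. The sources used here do not tie mice of these arrays to exposure runs, so p-values measure the spread between these mice. The fit was tested on simulated data. Precision is set by the number of arrays. Every column of sample values was assigned (0 remained).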

Additional observations from a re-analysis of the deposited data

How the results depend on the processing

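With array weights more members and more of all probe sets passed: for the averaged comparisons 10 members at 6 hr, 32 at 24 hr and 16 at 48 hr, of which 8, 30 and 4 were lower (4.32%, 16.2% and 2.16% of members, against 6.95%, 7.5% and 8.26% of all probe sets). The others were higher (1.08%, 1.08% and 6.49% of members, against 4.31%, 8.25% and 9.41%). Within genotypes array weights gave 1, 11 and 2 for WT, 7 and 7 for *Notch3*-/- at 24 and 48 hr, 5 and 6 for *Notch4*-/- at 6 and 24 hr, and 4 for *Notch4*-/- against WT in air. With a second quantile normalization, 1 member passed in *Notch3*-/- mice at 48 hr and 1 in *Notch4*-/- mice at 24 hr. With probe sets without suffix letters alone, which are fewer, 2 passed at 24 hr and 5 at 48 hr in the averaged comparisons, and 2 and 1 in the *Notch3*-/- and *Notch4*-/- lines over exposures. With the WT arrays alone, 0 passed in WT at 48 hr. Under the methods' ANOVA with Tukey's test 0 passed in any comparison of 2 groups. Without *Notch4*-/- air mice 1 and 2, 2 passed at 48 hr in the averaged comparison, 9 in *Notch4*-/- mice at 24 hr (all lower), 1 in *Notch4*-/- air and 7 in the *Notch4*-/- line over exposures. Without *Notch4*-/- ozone 48 hr mouse 2 and *Notch3*-/- air mouse 3, 0, 5 and 1 passed at 6 hr and 48 hr averaged and in *Notch3*-/- mice at 24 hr, and 1 in *Notch3*-/- mice at 48 hr. At 48 hr averaged, 2 members were higher and 3 lower without *Notch4*-/- ozone 48 hr mouse 2 and *Notch3*-/- air mouse 3. Of all probe sets, 2925 were then higher and 1682 lower, against 3026 and 1785 with all mice. Apart from these and the averaged counts with array weights, the counts are of members alone. For those, the share of all probe sets under the same setting was not set beside them. They cannot be told apart from a change over the whole array. The cause of these changes was not tested.

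Leaving out 1 mouse at a time gave 0 to 4 calls at 6 hr, 3 to 9 at 24 hr and 3 to 16 at 48 hr in the averaged comparisons, 0 to 1 in WT at 48 hr, 0 to 2 and 0 to 1 in *Notch3*-/- mice at 24 and 48 hr, 0 to 2 in *Notch4*-/- mice at 24 hr, and 4 to 6 and 4 to 9 in the 2 lines over exposures. In the other comparisons it gave 0. At 48 hr averaged, the fewest were 2 higher and 1 lower, without *Notch3*-/- air mouse 1, beside 2605 and 1353 of all probe sets. The most were 15 higher and 1 lower, without *Notch4*-/- ozone 48 hr mouse 3, beside 3140 and 1878. For the other ranges the share of all probe sets was not set beside the counts. Of the 29 calls, 11 held without any single mouse, and 0 changed sign under any alternative. Of 449 recomputed medians over the members, 10 moved by more than the SD within groups and 34 had another sign, all for main medians of at most 0.101. With the replicate block, 10 members passed at 48 hr and 5 in the *Notch4*-/- line over exposures, and no count of calls moved by over 1.5 times. Deviations of mice that share a replicate number correlated from -0.505 to 0.617 (median 0.0744, 198 pairs), with a median of -0.05 for other pairs, and 22 of 36 were closest to their own number, a hint from the data of something shared. Not every pair was over 0.1 and no label ties a number to a run, and the numbers were not used to pair the mice.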
